A study of Mus musculus with 12 samples.

Results

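A set of 7 transcription factors known for marking visceral fat and the lining of the body cavities was followed across 4 groups of mouse samples: Tcf21 (Entrez Gene 21412), Wt1 (22431), Bnc1 (12173), Gata4 (14463), Gata6 (14465), Nr2f1 (13865) and Nr2f2 (11819). They were taken by symbol from the 22180 genes that had a probe set of their own, and each of the 7 had 1 probe set. RNA of C57BL/6 mice was hybridised to 12 Affymetrix arrays, 3 for each group. The groups were adipose progenitor preparations (AP) of perigonadal visceral fat (VAT), AP of inguinal subcutaneous fat (SAT), whole unfractionated adipose tissue (AT) from VAT, and AT from SAT. AP are the stromal vascular cells, released by enzymes from the fat of several mice, left when antibody beads had depleted blood cells (lineage+) and endothelial cells (CD31+). Nothing selected positively for a progenitor surface protein, so AP can hold any other stromal cell of the depot. Dissociation was part of making AP but not of taking AT, so effects of that handling cannot be told apart from the difference between preparations. The labels name no transgene or treatment. Age and sex are not given in the sources used here.

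Values are log2 intensities from the robust multi-array average (RMA), and a difference of 1 is a doubling. Group means below 4.09, which 40% of all values do not reach, were read as near background; all 7 factors had means above it in all 4 groups. Differences were tested with limma over all 22180 genes, 2-sided, with Benjamini-Hochberg adjustment, and called means an adjusted p below 0.05. The labels call the 3 samples of a group biological replicates without naming their animals, and p-values here measure the spread between these samples. As for the preparations' names, 11 of 11 measured progenitor markers were higher in AP than in AT in SAT and 10 of 11 in VAT, while all 10 macrophage markers and all 10 adipocyte markers were lower in both depots. Of 10 endothelial markers, 9 were lower in AP in each depot. Between depots in AP, 5 of the 11 progenitor markers were lower in VAT and none higher by limma, nor was any higher at an unadjusted p under 0.05 (0 of 11), with a median of -0.55, and 4 of 10 pericyte and smooth muscle markers were higher and none lower (0 of 10 at an unadjusted p under 0.05). Their part in the depot differences of the factors in AP was not tested.

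White fat depots arise from different mesoderm, and the cells keep transcription factors that record that origin. Visceral fat is covered by mesothelium, an epithelial sheet that lines the body cavities, and WT1-positive cells of the embryonic lining contribute to visceral but not subcutaneous fat in the mouse. Tcf21 encodes a basic helix-loop-helix factor of visceral mesenchyme, epicardium and kidney stroma, and Wt1 a zinc finger factor of mesothelium, kidney podocytes and gonad. Bnc1 encodes basonuclin, a zinc finger protein of epithelia and germ cells that mesothelium also makes. Gata4 and Gata6 encode paired zinc finger factors of heart, gut endoderm, gonad and mesothelium, and Gata6 is also made by the large macrophages of the peritoneal cavity. Nr2f1 and Nr2f2 encode the orphan nuclear receptors COUP-TFI and COUP-TFII; Nr2f2 is known in veins, lymphatics and many mesenchymes.

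The 7 factors fell into different patterns. Tcf21 was far higher in AP from VAT than in the other groups. Wt1, Bnc1 and Gata6 were higher in VAT than in SAT in AP and in AT. Nr2f2 was higher in AP than in AT in both depots, with a depot difference that was not called. Nr2f1 and Gata4 differed little between groups. Of the 7 factors, 4 were called higher in VAT than in SAT in AP, where 3.03% of all genes were called higher and 2.6% lower. In AT 4 were called higher, where 2.8% of all genes were called higher and 1.75% lower. By limma no factor was called lower in any comparison, and none was lower at an unadjusted p under 0.05 (0 of 7 in each). At that unadjusted p, 6 of the 7 were higher in VAT in AP and 5 of the 7 in AT. The median difference of the 7 between depots was 1.05 in AP and 0.85 in AT, against 0.0 over all genes in both.

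**Figure D1:**
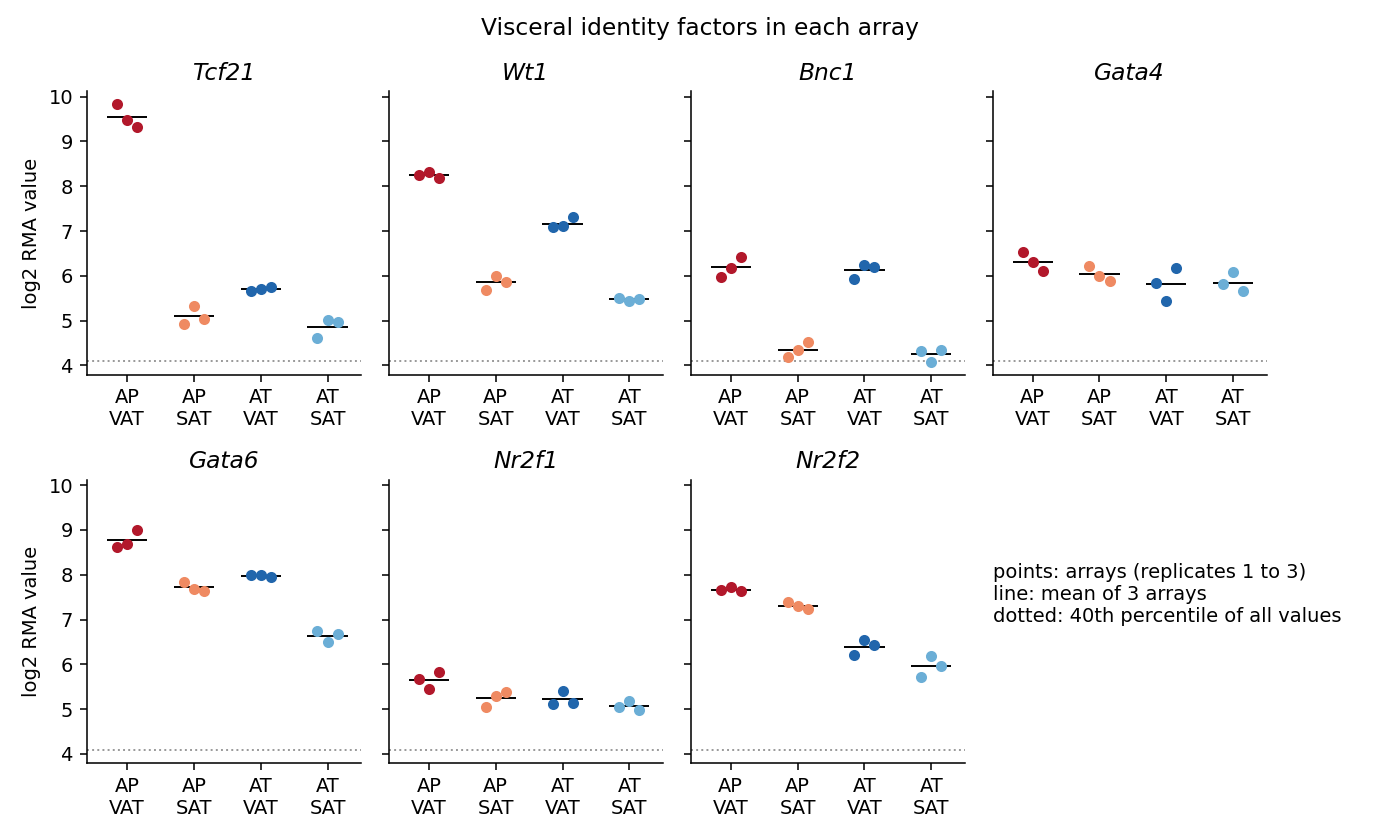
Log2 RMA value (vertical axis) of each factor in the 12 arrays, by group (AP from VAT, AP from SAT, AT from VAT, AT from SAT); points are arrays, lines are means of 3, and the dotted line is the 40th percentile of all values, 4.09. Tcf21 lies between 9.33 and 9.83 in AP from VAT and no higher than 5.76 in any other array, whereas Bnc1 lies between 5.92 and 6.43 in both VAT groups.

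Promoter windows, from 250 bases before to 50 after the transcription start, were read from RefSeq (GRCm38.p6) for 4 of the factors, and 1 is shown for each of 3 patterns: Tcf21 (AP from VAT), Bnc1 (VAT in both preparations) and Nr2f2 (AP in both depots). Capitals mark every match, on either strand, to AGATAA or TGATAA (sites of the GATA type), CANNTG (an E-box, the site type of Tcf21's family, which includes CAGCTG), GCGGGGGCG or GCGTGGGCG (sites that WT1 and the EGR factors share) and AGGTCA (a nuclear receptor element that COUP-TFs also bind). All 3 lie on the minus strand, at chr10:22820094-22820393 for Tcf21, chr7:81992250-81992549 for Bnc1 and chr7:70366697-70366996 for Nr2f2, and are printed 5′ to 3′.
Tcf21: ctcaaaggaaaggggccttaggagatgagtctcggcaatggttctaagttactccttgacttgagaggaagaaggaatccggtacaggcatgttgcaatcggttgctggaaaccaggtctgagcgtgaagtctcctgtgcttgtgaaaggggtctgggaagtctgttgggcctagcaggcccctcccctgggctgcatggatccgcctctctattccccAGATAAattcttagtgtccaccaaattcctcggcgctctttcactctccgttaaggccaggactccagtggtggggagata
Bnc1: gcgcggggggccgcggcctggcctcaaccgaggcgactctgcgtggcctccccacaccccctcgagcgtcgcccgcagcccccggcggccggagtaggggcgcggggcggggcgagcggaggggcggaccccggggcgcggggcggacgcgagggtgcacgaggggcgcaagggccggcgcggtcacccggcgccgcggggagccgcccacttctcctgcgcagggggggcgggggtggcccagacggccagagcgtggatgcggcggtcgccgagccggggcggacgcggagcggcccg
Nr2f2: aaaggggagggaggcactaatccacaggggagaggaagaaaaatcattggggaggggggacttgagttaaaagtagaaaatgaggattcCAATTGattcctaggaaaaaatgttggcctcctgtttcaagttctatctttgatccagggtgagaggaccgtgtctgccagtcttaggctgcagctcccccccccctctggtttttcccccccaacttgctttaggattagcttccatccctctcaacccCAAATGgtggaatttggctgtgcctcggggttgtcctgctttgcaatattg
The Tcf21 window held 1 match, AGATAA, whose first base is at position -31 from the start; 11.4% of 27025 promoter windows of this length, 1 for each gene, hold AGATAA. The Bnc1 window held no match to any of these, and differs in composition: 83.3% of its bases are G or C and it has 50 CG dinucleotides, against 53.3% and 8 in the Tcf21 window and medians of 52.7% and 7 over all windows. Only 0.233% of windows had a higher G and C share than Bnc1's. The Nr2f2 window held 2 E-box matches, CAATTG and CAAATG, and 72.1% of windows hold an E-box. Such matches are a description of the letters and show no binding.

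Tcf21 differed most between the depots in progenitors. Its values were 9.83, 9.47 and 9.33 in AP from VAT and 4.93, 5.33 and 5.04 in AP from SAT. The groups lay far apart, with every visceral array well above every subcutaneous one. The difference was 4.44 (SE 0.148, 95% interval 4.13 to 4.76, adjusted p = 2.44e-10), a 21.8-fold higher level in VAT. By p-value Tcf21 ranked 1 of 22180 genes in this comparison, and by size of rise 4.

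In whole tissue the depot difference of Tcf21 was far smaller. AT from VAT had 5.65, 5.71 and 5.76, and AT from SAT had 4.60, 5.02 and 4.96. The groups did not overlap, and the difference was 0.85 (SE 0.148, 95% interval 0.53 to 1.16, adjusted p = 0.00289). Ordered by mean, Tcf21 was at 9.54 ± 0.26 (SD, n = 3 here and below) in AP from VAT, 5.71 ± 0.06 in AT from VAT, 5.10 ± 0.21 in AP from SAT and 4.86 ± 0.23 in AT from SAT, and the last 2 groups overlapped. Within VAT, AP exceeded AT by 3.84 (SE 0.148, adjusted p = 3.19e-11, 14.3-fold), while within SAT the difference of 0.24 was not called (95% interval -0.08 to 0.56, adjusted p = 0.261). In these bulk samples fewer cells of a type and less RNA per cell cannot be told apart.

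The interaction is the depot difference of AP less the depot difference of AT. For Tcf21 it was 3.60 (SE 0.210, 95% interval 3.15 to 4.04, adjusted p = 7.64e-07), which ranked 1 of 22180 by p-value and 2 by size of rise. Of the 7 factors 2 were called higher in this test, Tcf21 and Wt1, against 0.987% of all genes called higher and 1.16% lower.

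Wt1 rose with depot in both preparations. Its values were 8.26, 8.32 and 8.19 in AP from VAT and 5.69, 6.00 and 5.87 in AP from SAT, a difference of 2.40 (SE 0.106, adjusted p = 2.71e-09, 5.29-fold). In AT they were 7.08, 7.11 and 7.31 in VAT and 5.51, 5.44 and 5.48 in SAT, a difference of 1.69 (SE 0.106, adjusted p = 1.75e-07, 3.23-fold). No 2 of the 4 groups overlapped, in the order AP from VAT, AT from VAT, AP from SAT, AT from SAT. By p-value Wt1 ranked 5 in AP and 13 in AT.

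Wt1 was also higher in AP than in AT, by 1.09 in VAT (SE 0.106, adjusted p = 9.79e-07) and by 0.38 in SAT (SE 0.106, adjusted p = 0.0119). The SAT value was 0.30 without replicate 2 of AP from SAT and no longer called (adjusted p = 0.0717). The interaction of Wt1 was 0.71 (SE 0.151, 95% interval 0.39 to 1.03, adjusted p = 0.0219), so its depot difference was larger in AP than in AT. That call was lost on leaving out replicate 1 of any of the 4 groups or replicate 2 of visceral AP (adjusted p = 0.0501 to 0.0671), with a value of 0.63 to 0.71 in those 5 fits. The antisense neighbour Wt1os was near background in AP from SAT and in both AT groups, at means of 3.83, 3.85 and 3.78, and at 4.23 ± 0.15 in AP from VAT; its depot difference in AP, a fitted value, was 0.41 (SE 0.101, adjusted p = 0.0248).

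Bnc1 differed by depot, with no called difference between preparations. It was at 5.98, 6.17 and 6.43 in AP from VAT and at 4.18, 4.35 and 4.53 in AP from SAT, and at 5.92, 6.25 and 6.19 in AT from VAT and 4.31, 4.08 and 4.34 in AT from SAT. The visceral arrays of both preparations overlapped each other and lay clear of all subcutaneous ones, which were close to background. The depot difference was 1.84 in AP (SE 0.139, adjusted p = 5.34e-07) and 1.88 in AT (SE 0.139, adjusted p = 9.03e-07). The interaction was -0.04 (95% interval -0.45 to 0.38, adjusted p = 0.965). AP minus AT was 0.07 in VAT (95% interval -0.22 to 0.37) and 0.11 in SAT (95% interval -0.19 to 0.41), neither called.

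Gata6 differed by depot and by preparation. AP from VAT had 8.63, 8.68 and 9.00 and AP from SAT 7.83, 7.68 and 7.64, a difference of 1.05 (SE 0.116, adjusted p = 2.82e-05). AT from VAT had 7.99, 7.99 and 7.94 and AT from SAT 6.74, 6.49 and 6.68, a difference of 1.34 (SE 0.116, adjusted p = 4.55e-06). The order of means was AP from VAT, AT from VAT, AP from SAT and AT from SAT, with no overlap between neighbours. AP exceeded AT by 0.80 in VAT (SE 0.116, adjusted p = 5.76e-05) and by 1.08 in SAT (SE 0.116, adjusted p = 2.35e-06), and the interaction was not called (-0.28, 95% interval -0.63 to 0.07).

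Gata6os, the long noncoding neighbour of Gata6, has a probe set of its own and was also higher in VAT. Its difference was 0.63 in AP (SE 0.115, adjusted p = 0.0029) and 0.55 in AT (SE 0.115, adjusted p = 0.0109). AP minus AT was 0.24 in VAT and 0.16 in SAT, and neither was called.

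Gata4, the paralog of Gata6, showed no called depot difference. It was at 6.53, 6.31 and 6.11 in AP from VAT, against 6.22, 6.00 and 5.89 in AP from SAT, and at 5.85, 5.44 and 6.18 in AT from VAT, against 5.81, 6.08 and 5.65 in AT from SAT. The groups overlapped in both comparisons. The depot difference was 0.28 in AP (95% interval -0.09 to 0.65, adjusted p = 0.525) and -0.02 in AT (95% interval -0.40 to 0.35, adjusted p = 0.975). AP minus AT in VAT was called at 0.49 (SE 0.174, adjusted p = 0.041) although the arrays overlapped, and the call was lost on leaving out replicate 1 or 2 of either VAT group or replicate 2 of subcutaneous AP (adjusted p = 0.0525 to 0.209, values 0.30 to 0.51).

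Nr2f2 separated the preparations. AP had 7.65, 7.73 and 7.63 in VAT and 7.39, 7.31 and 7.23 in SAT, and AT had 6.20, 6.55 and 6.44 in VAT and 5.71, 6.18 and 5.97 in SAT. AP exceeded AT by 1.27 in VAT (SE 0.126, adjusted p = 1.15e-06, 2.42-fold) and by 1.36 in SAT (SE 0.126, adjusted p = 5.40e-07, 2.56-fold). The depot differences pointed to VAT but were not called: 0.36 in AP (95% interval 0.09 to 0.63, adjusted p = 0.138) and 0.44 in AT (95% interval 0.17 to 0.71, adjusted p = 0.0627), with no overlap between the depots in either. The AT value was called without replicate 1 of AT from VAT (0.54, adjusted p = 0.0416) or replicate 2 of AT from SAT (0.56, adjusted p = 0.0259).

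Nr2f1 showed no called depot difference. Its values were 5.68, 5.44 and 5.82 in AP from VAT and 5.05, 5.29 and 5.39 in AP from SAT, and 5.11, 5.40 and 5.14 in AT from VAT and 5.04, 5.17 and 4.98 in AT from SAT. The depot difference was 0.40 in AP (95% interval 0.13 to 0.68, adjusted p = 0.0923) and 0.15 in AT (95% interval -0.12 to 0.43, adjusted p = 0.643). The arrays of the depots did not overlap in AP but did in AT. AP minus AT in VAT was called at 0.43 (SE 0.128, adjusted p = 0.0171), but not on leaving out replicate 1 or 3 of either VAT group (adjusted p = 0.0524 to 0.0723, values 0.34 to 0.41). The long noncoding gene A830082K12Rik, which lies next to Nr2f1, was called higher in VAT in both preparations, by 0.46 in AP (SE 0.098, adjusted p = 0.00989) and 0.41 in AT (SE 0.098, adjusted p = 0.0251).

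**Figure D2:**
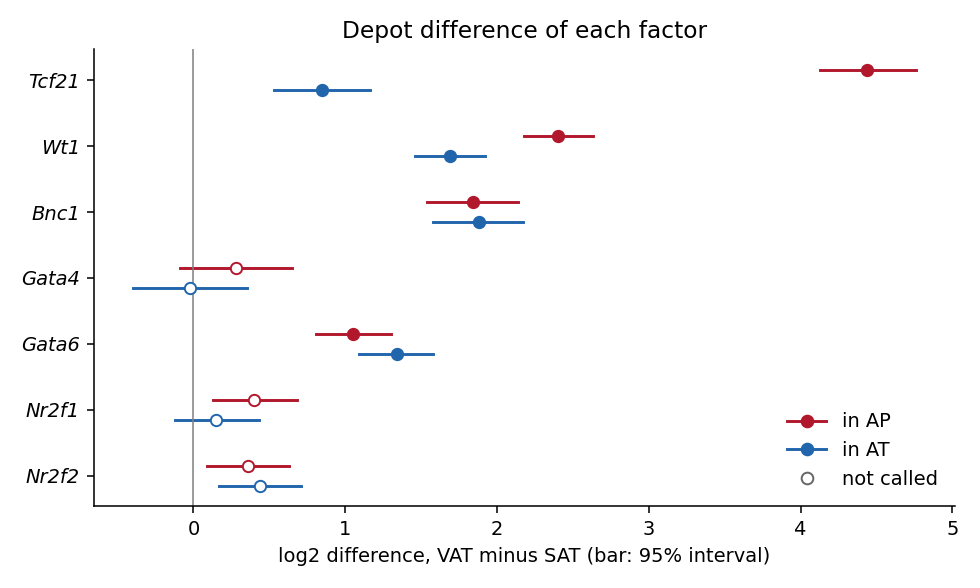
Log2 difference between VAT and SAT (horizontal axis, VAT minus SAT) of each factor in AP (red) and in AT (blue), with 95% intervals from limma; filled points were called at an adjusted p under 0.05. Tcf21 is the factor whose intervals in AP and AT lie farthest apart, 4.44 against 0.85, while those of Bnc1 overlap, at 1.84 and 1.88.

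Between preparations, 6 of the 7 factors were called higher in AP than in AT in VAT, where 15.8% of all genes were called higher and 16.8% lower. In SAT 3 of 7 were, where 16.1% of all genes were called higher and 16.3% lower. The 3 in SAT were Wt1, Gata6 and Nr2f2. Bnc1 was the factor not called in VAT. The median difference of the 7 was 0.80 in VAT and 0.24 in SAT, against 0.03 over all genes in each. When arrays were scaled to housekeeping genes the median of all genes moved to 0.57 in VAT and 0.54 in SAT. All 7 factors were then called higher in AP in both depots. So were 16398 of all 22180 genes in VAT and 16199 in SAT, with 1294 and 1403 called lower. The scaling adds a shift to every gene, so these calls do not set the factors apart from other genes.

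**Figure D3:**
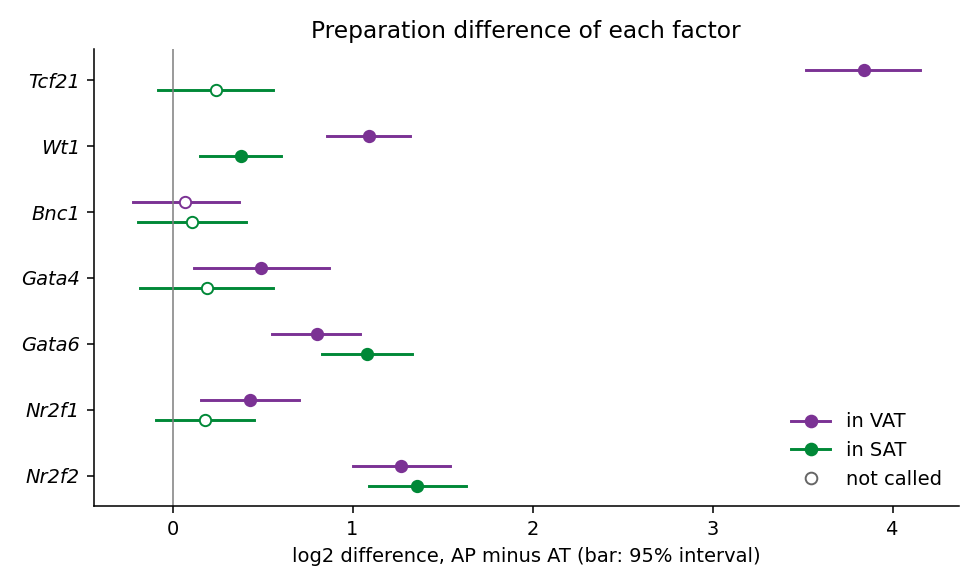
Log2 difference between AP and AT (horizontal axis, AP minus AT) of each factor in VAT (purple) and in SAT (green), with 95% intervals from limma; filled points were called. Nr2f2 is at 1.27 in VAT and 1.36 in SAT, whereas Tcf21 is at 3.84 in VAT and 0.24 in SAT.

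Mesothelial markers moved with the depot in both preparations. Without Wt1 and Bnc1, all 13 of 13 listed markers were measured and all 13 were called higher in VAT, both in AP (median 2.23) and in AT (median 2.75), against medians of 0.0 over all genes. The list's mean log2 value was 7.89 to 8.37 in AP from VAT, 5.63 to 5.80 in AP from SAT, 7.71 to 7.93 in AT from VAT and 5.30 to 5.62 in AT from SAT. Between preparations in VAT 5 of the 13 were called higher in AP, where 15.8% of all genes were. The median of the 13 was 0.39 and the highest value 0.97. In the interaction none of the 13 was called by limma, 2 were higher at an unadjusted p under 0.05, and the values ran from -0.52 to 0.95. Tcf21, at 3.84 between preparations in VAT and 3.60 in the interaction, lay outside the range of these markers in both. Wt1, at 1.09, lay above it between preparations. Bnc1 and Gata6 lay within it in both, as did the interaction of Wt1.

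The single arrays of AP from VAT also differed between factors. The array with the lowest mesothelial mean (7.89, replicate 1) had the lowest Bnc1, 5.98, and the highest Tcf21, 9.83. The array with the highest mesothelial mean (8.37, replicate 3) had the highest Bnc1, 6.43, and the highest Gata6, 9.00. That array also had the lowest Tcf21, 9.33, and the lowest Wt1, 8.19. In AP from SAT replicate 2 had the highest mesothelial mean, 5.80, and also the highest Tcf21, 5.33, and Wt1, 6.00. Bnc1 was highest there in replicate 3, at 4.53, the array with the lowest mesothelial mean, 5.63. With 3 arrays a group these orders are a description. What mesothelial cells contribute to the depot differences of Tcf21, Wt1, Bnc1 and Gata6 was not tested.

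**Figure D4:**
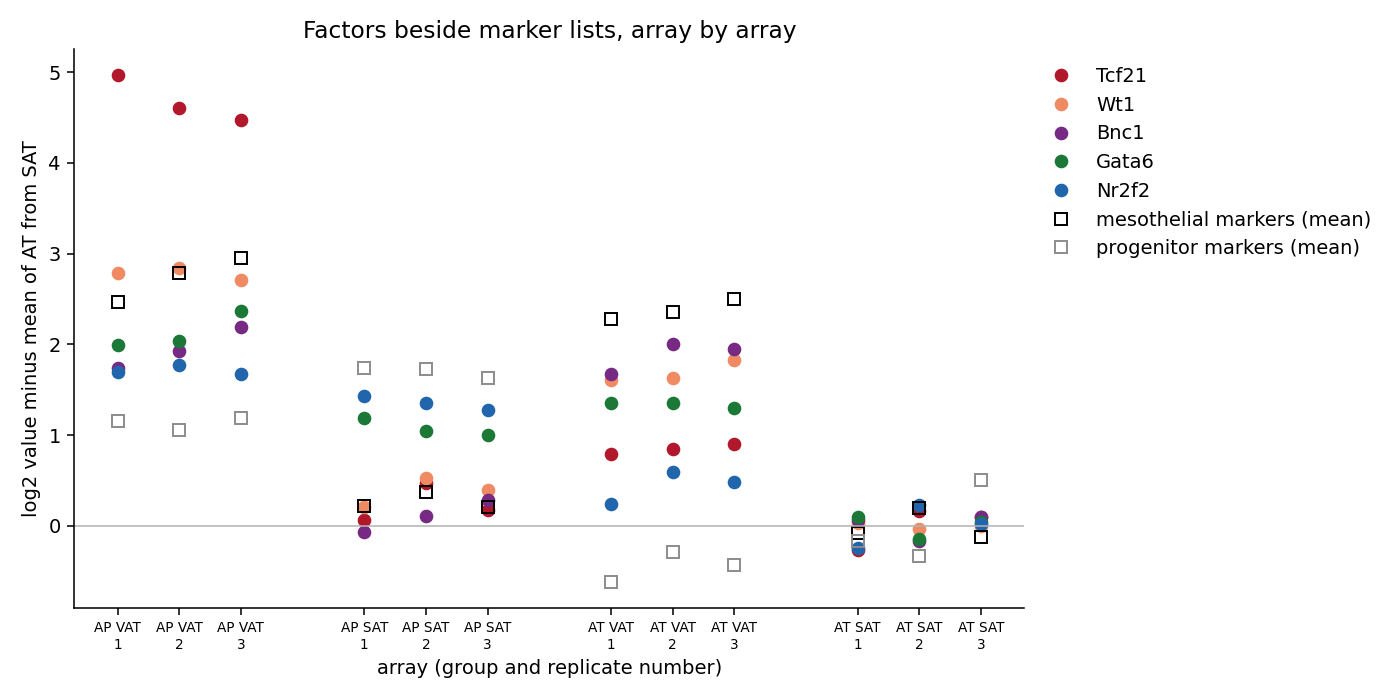
Log2 value minus the mean of AT from SAT (vertical axis) in each of the 12 arrays for 5 factors (filled circles) and for the mean of 13 mesothelial and 11 progenitor markers (open squares). Tcf21 stands above the mesothelial mean in AP from VAT and below it in AT from VAT, while Bnc1 lies below that mean in every VAT array of both preparations.

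Other cell types known for these factors were also read. Of the 10 markers of large peritoneal macrophages, 4 were called higher in AT from VAT than in AT from SAT, among them the lipoxygenase Alox15 (1.75, SE 0.149, adjusted p = 4.20e-06), and 1 was higher and 1 lower in AP. The mean of the list was 5.24 to 5.45 in AP from VAT, 5.18 to 5.51 in AP from SAT, 5.97 to 6.18 in AT from VAT and 5.28 to 5.55 in AT from SAT. Their part in the depot difference of Gata6 in AT was not tested. In AP the macrophage receptor Adgre1 was at 4.53 ± 0.03 in VAT and 4.44 ± 0.26 in SAT, against 7.46 ± 0.21 and 7.96 ± 0.23 in AT. All 10 macrophage markers were lower in AP than in AT. What macrophages contribute to the level of Gata6 in either preparation was not tested.

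Nr2f2 is known in veins and lymphatics, and AP had been depleted of CD31+ cells. The mean of the endothelial list was 5.38 to 5.45 in AP from VAT and 5.21 to 5.37 in AP from SAT, against 6.97 to 7.37 in AT from VAT and 7.26 to 7.36 in AT from SAT. Of 9 measured venous and lymphatic markers, 1 was higher and 5 lower in AP than in AT in VAT, and 3 were higher and 4 lower in SAT; their part in the difference of Nr2f2 was not tested. Pericyte and smooth muscle markers moved the same way as Nr2f2, with 10 of 10 higher in AP in VAT and 8 of 10 in SAT. Over all genes 15.8% were called higher in AP in VAT and 16.1% in SAT, and 16.8% and 16.3% were called lower. The part of pericytes and smooth muscle in the rise of Nr2f2 was not tested.

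Perigonadal fat lies against the gonad and its ducts, where Wt1, Gata4 and Nr2f2 are also made. Of 12 markers of gonadal somatic cells 10 were measured, and their mean was 4.92 to 5.14 in AP from VAT, 4.88 to 4.95 in AP from SAT, 4.42 to 4.61 in AT from VAT and 4.39 to 4.58 in AT from SAT. In each of the 4 groups 7 of the 10 were above background. The steroid enzymes Cyp17a1 and Hsd3b1 and the follicle-stimulating hormone receptor Fshr were near background in all 4 groups. In AP 2 of the 10 were called higher in VAT, Sox9 (1.74, SE 0.130) and Star (0.69, SE 0.146), and 1 was lower, Cyp11a1 (-1.03, SE 0.156). In AT 1 was higher, Sox9 (0.85, SE 0.130), which was also the 1 called in the interaction (0.90, SE 0.184, adjusted p = 0.0193). Their part in the differences of the factors was not tested. Of 11 measured epididymal markers no more than 2 were above background in any group, and none was called higher in VAT by limma in AP or in AT, and at an unadjusted p under 0.05 the count was 1 in AP and 0 in AT. The epididymal marker Rnase10 was lower in AP from VAT (-0.53, SE 0.123).

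Of 20 measured relatives in the same protein families, 3 were called higher and 1 lower in AP from VAT, with a median of 0.07. The higher ones were Gata5, a GATA factor of heart and gut (1.18, SE 0.190, adjusted p = 0.000915), Tcf23, a helix-loop-helix relative of Tcf21 (0.73, SE 0.118), and Gata2, which restrains adipocyte differentiation (0.52, SE 0.129). Twist1, a helix-loop-helix factor of mesenchyme, was lower (-0.96, SE 0.135). Gata5 had 6.33, 6.32 and 6.37 in AP from VAT and 4.93, 5.46 and 5.08 in AP from SAT, and was also higher in AT (1.06, SE 0.190, adjusted p = 0.00349). In AT 2 of the 20 were higher and none lower by limma, with 1 lower at an unadjusted p under 0.05. The second in AT was Bnc2, the paralog of Bnc1, named after its values were seen: its depot difference was -0.22 in AP and 0.84 in AT (SE 0.103), and its interaction of -1.06 was called (SE 0.146, adjusted p = 0.00131).

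Among 12 measured partners and cofactors, 3 were called higher and none lower in AP from VAT, with 2 lower at an unadjusted p under 0.05. They were Trps1, a repressor with a GATA-type finger (0.91, SE 0.145), Pawr, a protein that binds WT1 (0.75, SE 0.126), and Zfpm2, also called FOG2, a cofactor of GATA4 (0.65, SE 0.140, adjusted p = 0.00965). In AT 3 were higher and 1 lower. Pawr and Zfpm2 were higher in VAT there too, by 0.77 and 0.61, and Trps1 was at 0.08 and not called.

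Genes reported as WT1 targets in kidney, gonad or epicardium split. Of 14 measured, 3 were called higher and 1 lower in AP from VAT, with a median of 0.10, and in AT 1 was higher. Podxl, the sialomucin podocalyxin of podocytes and vessels, was at 6.41, 6.73 and 6.75 in AP from VAT and 4.18, 4.98 and 4.25 in AP from SAT, a difference of 2.16 (SE 0.186, adjusted p = 2.28e-06). Its interaction was also called, at 1.57 (SE 0.262, adjusted p = 0.00564). The retinaldehyde dehydrogenase Aldh1a2 was higher by 1.67 in AP (SE 0.214, adjusted p = 0.000122) and by 1.58 in AT (SE 0.214, adjusted p = 0.000327). Spry1, which limits receptor tyrosine kinase signalling, was higher in AP by 0.64 (SE 0.138), and the neurotrophin receptor Ntrk2 was lower by 0.86 on the log2 scale (-0.86, SE 0.096, adjusted p = 3.30e-05).

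Retinoic acid, the product of the ALDH1A enzymes, is known to induce Gata6 in peritoneal macrophages of the mouse. Of 14 measured genes of its metabolism and reception, 2 were called higher and 2 lower in AP from VAT. Besides Aldh1a2 these were the enzyme Aldh1a1 (1.21, SE 0.175), the retinoic acid hydroxylase Cyp26b1 (-0.98, SE 0.176) and the receptor Rarg (-0.72, SE 0.192). In AT 3 were higher and none lower by limma, with 1 lower at an unadjusted p under 0.05, and Aldh1a1 was among them (1.57, SE 0.175, adjusted p = 5.23e-05).

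Hedgehog signalling lies upstream of Nr2f2 in several embryonic tissues of the mouse. Of 12 measured genes of the pathway, 3 were called higher in AP from VAT: the co-receptors Boc (1.23, SE 0.139) and Gas1 (1.02, SE 0.150) and the transcription factor Gli2 (0.65, SE 0.129). In AT 5 were higher, with Boc at 1.72 and Gas1 at 1.34. None was lower by limma in either, and at an unadjusted p under 0.05 the count was 0 in AP and 1 in AT. Between preparations 9 of 12 were higher in AP in VAT and 8 in SAT, where 15.8% and 16.1% of all genes were called higher. Their part in the difference of Nr2f2 was not tested.

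Of 15 measured transcription factors of coelomic, epicardial and gonadal mesenchyme, 2 were higher and 1 lower in AP from VAT, with a median of 0.07. Meis1, a homeobox cofactor of HOX proteins, was higher by 1.25 in AP (SE 0.114) and 1.31 in AT (SE 0.114), and Isl1, a LIM homeobox factor of heart progenitors, by 0.77 (SE 0.129) and 0.84 (SE 0.129). Emx2, a homeobox factor of the urogenital system, went the other way, with 5.62, 5.33 and 5.36 in AP from VAT and 7.78, 7.28 and 7.52 in AP from SAT (-2.09, SE 0.173, adjusted p = 1.39e-06). Of 10 transcription factors of subcutaneous position, 7 were lower and 1 higher in AP from VAT (median -1.08). In AT 6 were lower and 1 higher (median -0.80). In the interaction 3 of the 10 were called lower and none higher by limma (0 higher at an unadjusted p under 0.05): the T-box factors Tbx5 (-1.57, SE 0.193, adjusted p = 0.000572) and Tbx15 (-1.30, SE 0.230, adjusted p = 0.00779) and the homeobox factor En1 (-0.82, SE 0.163, adjusted p = 0.0165).

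Most genes beside the factors on the chromosome were not called between depots. Beside Wt1os, Gata6os and A830082K12Rik, the neighbour called between depots in AP was Eya4, the next protein-coding gene beyond Tcf21, which was lower in VAT (-1.69, SE 0.307, adjusted p = 0.00265), opposite to Tcf21. Tbpl1, on the other side of Tcf21, was at -0.04 and not called. The coding neighbours of Wt1, Eif3m and Them7, were at 0.35 and -0.04, and those of Bnc1, Hdgfl3 and Sh3gl3, at -0.03 and 0.06, none called.

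The genes whose profile over the 12 arrays lay nearest to each factor were found by the root mean square distance after each gene was centred on its own mean. Gata4 and Nr2f1, whose group means spanned less than 1, were left out. Nearest to Tcf21 were the matrix proteins Cilp (distance 0.646) and Col6a5 (0.707) and the secreted guidance ligand Slit2 (0.762). These distances are larger than those of the other factors, which were between 0.139 and 0.297, though the span of Tcf21 was 4.68, against 1.72 to 2.78. The depot difference of Slit2 was 2.49 in AP (SE 0.125) and 0.55 in AT (SE 0.125), with an interaction of 1.94 (SE 0.177). In AT, Cilp had a mean of 6.53 in VAT and 4.24 in SAT, and Col6a5 had 7.53 and 4.87. Genes named here and below were picked by their profile in these same arrays, so their differences are a description.

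Nearest to Wt1 were Capn6, a calpain family member (0.255), the annexin Anxa9 (0.267) and ezrin (Ezr, 0.297), which joins the membrane to actin. Nearest to Bnc1 were the zinc transporter Slc39a8 (0.152), the basement membrane protein Fras1 (0.211) and the sodium channel subunit Scn3b (0.212). Slc39a8 had a depot difference of 1.85 in AP and in AT alike (SE 0.170). Nearest to Gata6 were Meis1 (0.139), Plekhh2 (0.181) and the growth factor Bmp4 (0.185), and nearest to Nr2f2 were tropomyosin (Tpm1, 0.139), the sugar transporter Slc50a1 (0.149) and the LIM-domain adaptor Ldb1 (0.149).

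**Figure D5:**
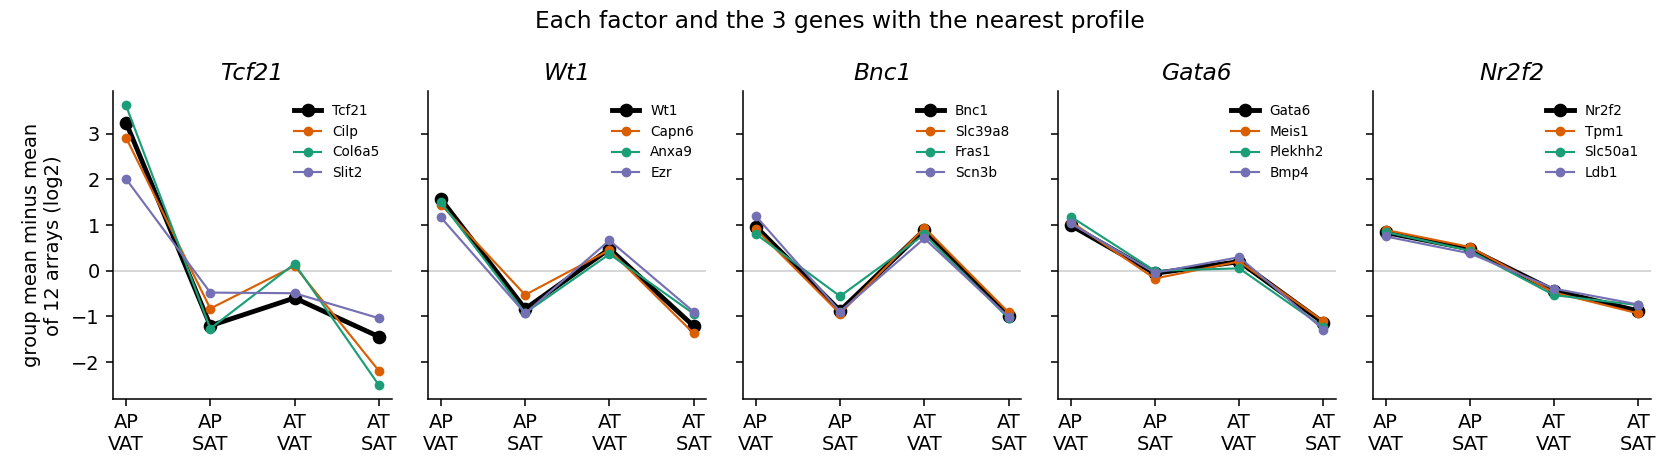
Group mean minus the mean of all 12 arrays (vertical axis, log2) for the 5 factors whose group means span at least 1 (black) and for the 3 genes nearest to each (colours), by group. Tcf21 has 1 high group and 3 low ones, Bnc1 alternates with the depot, and Nr2f2 steps down between AP and AT.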

How the data were processed

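Gene expression was measured on 12 Affymetrix arrays. The authors deposited 1 log2 value for each probe set, from RMA in Affymetrix Expression Console 1.3.0.187, per the submitters' processing notes; the log base follows from RMA and from values that run 1.69 to 13.48. The settings, probe set library and genome build are not given in the sources used here. The array medians were 4.49 to 4.67. Precision is limited by how many arrays there are.

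The platform annotation gave 1 gene for 23521 of 41345 probe sets, several for 1814 and none for 16010. Only the first kind was used, and of several per gene the one with the highest mean was kept, as for 1082 of 22180 genes. The fit used limma 3.58.1 (R 4.3.3) on all 12 arrays together, a mean for each group, 8 residual and 6.84 prior degrees of freedom, with no filter. The code was tested on simulated data. Python 3.11.15 drew the figures.

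The factors and the gene lists were chosen with earlier results of these data known, so a list is described by counts and its median, with no test of its own. Named genes are the 7 factors, per list up to 4 called genes with the largest depot difference in AP, the 3 nearest profiles, the chromosomal neighbours and cell type markers.

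Over 18 pairs of same-numbered arrays of different groups, the correlation of deviations from group means, across genes, was -0.28 to 0.159, and 3 exceeded 0.1. Over pairs with other numbers it was -0.184 to 0.309. Between AP from SAT and AP from VAT, same-numbered pairs were at 0.02, 0.118 and 0.087, and the others ran from -0.179 to 0.083. The labels state no pairing, and the numbers were not used as pairs in the reported fit. Alternatives were a replicate block, trend and robust empirical Bayes, quantile normalization, cyclic loess, the compared groups alone, housekeeping scaling (10 of 13 listed genes measured), dim genes left out, the mean over probe sets, and leaving out each array.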

Additional observations from a re-analysis of the deposited data

Results flagged for a closer look

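The depot difference of 2 factors itself differed between the preparations in the interaction test of limma. For Tcf21 the difference between VAT and SAT was 4.44 in AP, against 0.85 in AT, with an interaction of 3.60 (adjusted p = 7.64e-07); it was called in all 19 alternatives, at 3.45 to 3.73 (adjusted p = 8.03e-11 to 1.29e-05). For Wt1 the difference was 2.40 in AP, against 1.69 in AT, with an interaction of 0.71 (adjusted p = 0.0219); it was called in 13 of 19 alternatives, at 0.63 to 0.80 (adjusted p = 0.018 to 0.117).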

How the results depend on the processing

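The depot calls of Tcf21, Wt1, Bnc1 and Gata6, in AP and in AT, held in all 20 alternatives. So did the rises of Gata6 and Nr2f2 in AP over AT in both depots and those of Tcf21 and Wt1 in VAT. Several alternatives left these differences as they were and could change only their error or adjustment. They were the replicate block, trend and robust empirical Bayes, the compared groups alone, dim genes left out and leaving out an array of another group. The mean over probe sets could not change a factor's values, as each had 1 probe set. Of 693 values of single factors, 667 stayed on their side of the threshold, 19 lost a call, 7 gained one and 0 reversed a called direction. The factors called higher in VAT numbered 4 in AP in every alternative, and 4 to 5 in AT when arrays were left out. Leaving out arrays gave 4 to 6 factors for AP over AT in VAT, 2 to 3 in SAT, and 1 to 2 in the interaction. Scaled to housekeeping genes, 7 factors were called in SAT and 1 in the interaction, where Wt1 had an adjusted p of 0.117. The genes called were then 17692 in VAT (16398 higher and 1294 lower), against 7239 (3507 higher and 3732 lower), and 17602 in SAT (16199 higher and 1403 lower), against 7186 (3571 higher and 3615 lower); the scaling adds a shift to every gene. Between depots it gave 810 higher and 280 lower in AP, against 673 and 577, and 666 higher and 210 lower in AT, against 621 and 388, with a median shift of 0.133 and 0.113. With the arrays of AT alone 601 genes were called between depots in AT, against 1009. Leaving out arrays gave 849 to 1374 genes between depots in AP, against 1250, of which those lower numbered 344 without replicate 2 of visceral AP and 357 without replicate 1 of subcutaneous AP, against 577. It gave 660 to 1026 genes in AT and 264 to 626 in the interaction, against 476, with 264 and 309 on leaving out replicate 1 or 2 of subcutaneous AP, 279 for replicate 2 of visceral AP and 293 for replicate 1 of subcutaneous AT; 660 (412 higher and 248 lower) came without replicate 1 of AT from SAT, and without replicate 3 of visceral AT 244 were lower there. With the replicate block 1187 genes were called between depots in AP, 946 in AT, 6968 and 7013 between preparations in VAT and SAT, and 417 in the interaction; 5 of 12 arrays correlated best with their own number, and the call of Gata4 in VAT was lost (adjusted p = 0.0518), as it was with the VAT arrays alone (0.0599). Nr2f1 in VAT was not called under cyclic loess (0.34, adjusted p = 0.0695). The cause of these changes was not tested.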
